A study of Oryza sativa with 8 samples.

Results

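The comparison described here sets roots against leaves of hydroponically grown rice (Oryza sativa, cultivar Tsukinohikari) that had sufficient iron throughout. It uses all 8 libraries of the study, 4 from roots and 4 from leaves, and every one of the 46120 gene rows of the deposited table. Each tissue was sampled once from the non-transformant (NT) and once from each of 3 transformed lines that overexpress the bZIP transcription factor gene OsbZIP83, named b83OX-13, b83OX-15 and b83OX-19. Root and leaf libraries were paired by line, so that each line contributed 1 root minus leaf difference. Of the 4 pairs, 3 therefore carry the transgene in both tissues, and the promoter driving it is not given in the sources used here. The labels state no plant age, and they do not tell single plants from pools, so a p-value here measures only the spread between these samples.

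As background, a root takes up water and mineral nutrients through channels and carriers of its outer cells and passes them across barrier layers of lignin and suberin into the xylem. A leaf blade is dominated by mesophyll cells whose chloroplasts fix carbon, and the nuclear genes for the light-harvesting and carbon-fixing proteins are among the most strongly expressed genes of a green plant. Rice takes up iron both as ferrous ions and as a complex with deoxymugineic acid, a chelator that it makes from nicotianamine and secretes from the root.

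Libraries were made with Lasy-Seq, a method that sequences the 3′ end of transcripts, and gene values are reads per 1000000 gene reads (RPM), in which all gene rows of a library sum to the same fixed total. Because the value is not divided by transcript length and each gene gives 3′ reads, the tests compare levels between tissues and not between genes. Rankings of genes by abundance are of RPM as deposited. The estimated number of gene reads was 17000000 to 31600000 in roots and 22600000 to 35700000 in leaves. The tissue labels held for all 8 libraries. The 7 leaf markers (Rubisco small subunits, light-harvesting proteins, Rubisco activase and glycolate oxidase) summed to 68673 to 84096 RPM in leaves and to 0 to 190.2 RPM in roots. The 6 root markers summed to 7278 to 9464 RPM in roots and to 0 to 4.33 RPM in leaves. Pearson correlations of log2(RPM + 1) were 0.974 to 0.994 between root libraries, 0.965 to 0.986 between leaf libraries and 0.387 to 0.439 between the tissues. Chloroplast rRNA made up 0.12 to 1.86% of the rRNA class in roots and 71.1 to 74.7% in leaves.

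A listed 0 is not read as absence. A possible deduction of reads before deposit was estimated from genes with 200 to 600 reads in all libraries together. When 0.134 to 0.146% of such a gene's total was returned to each library, its values under 200 reads were more often whole. Whole means within 0.1 read, which 20% of evenly spread values would meet. They were whole in 46.5 to 53.7% of cases against 9.47 to 12.3% as deposited. The share returned was chosen in each library to make this figure highest, which in part fixes the rise. Over all genes, 45.5 to 61.2% of values under 20 reads were whole as deposited. No source used here describes such a deduction. A gene abundant in one tissue can therefore be listed at 0 in the other while holding reads there, and the estimated deduction is the level that a 0 would still allow. No fold is given for the 52 named genes listed at 0 in all 4 libraries of a tissue, for which that level was 0.0109 to 192 RPM, or 0.46 to 0.754% of the gene's mean in the other tissue. Where returning the deducted reads moves a printed difference by over 1.5-fold, the value with those reads added back follows it. In the text, 4 values in a row are always in the order NT, b83OX-13, b83OX-15 and b83OX-19.

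More genes reached 1 RPM in roots, and leaves concentrated their reads in a few. In roots 21195 ± 87.2 genes (SD, n = 4) reached 1 RPM and in leaves 18987 ± 262 did, and the root value was higher in 4 of 4 lines by 2208 genes on average (exact paired permutation test over lines, two-sided p = 0.13, the smallest that 4 pairs allow). The 10 most abundant genes took 5.90 ± 0.11% of root RPM and 14.2 ± 0.85% of leaf RPM (exact p = 0.13). The 100 most abundant took 18.4 to 18.9% in roots and 32.4 to 37.5% in leaves. The groups did not overlap in these measures. They did overlap in genes above 0, at 29428 to 31186 in roots and 27956 to 29506 in leaves. A count at 1 RPM depends on the fixed total that all genes share, and it was not repeated after rescaling.

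Of 21991 genes that averaged 1 RPM or more, 18273 (83.1%) differed between the tissues (limma on log2(RPM + 1) with line as a block, Benjamini-Hochberg adjusted p at or below 0.05). Of all tested genes, 12887 (58.6%) were higher in roots and 5386 (24.5%) higher in leaves. The median difference of all tested genes was 0.59 on the log2 scale toward roots, a shift of 1.5-fold. RPM values sum to the same total in both tissues, and leaf RPM is held by fewer genes. After TMM rescaling the median was 0.07, and the share of calls that were higher in roots was 53.1% against 70.5% as deposited. Small differences are therefore read relative to that shift. The text leans on differences of at least 4-fold, which 5939 genes (27.0%) showed, 3781 (17.2%) toward roots and 2158 (9.81%) toward leaves. After TMM rescaling 2755 (12.5%) and 2750 (12.5%) did. Here and below a difference is root minus leaf on the log2(RPM + 1) scale with its standard error, so a negative value is higher in leaves. In bulk tissue, fewer cells of a type and less RNA per cell cannot be told apart.

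**Figure D1:**
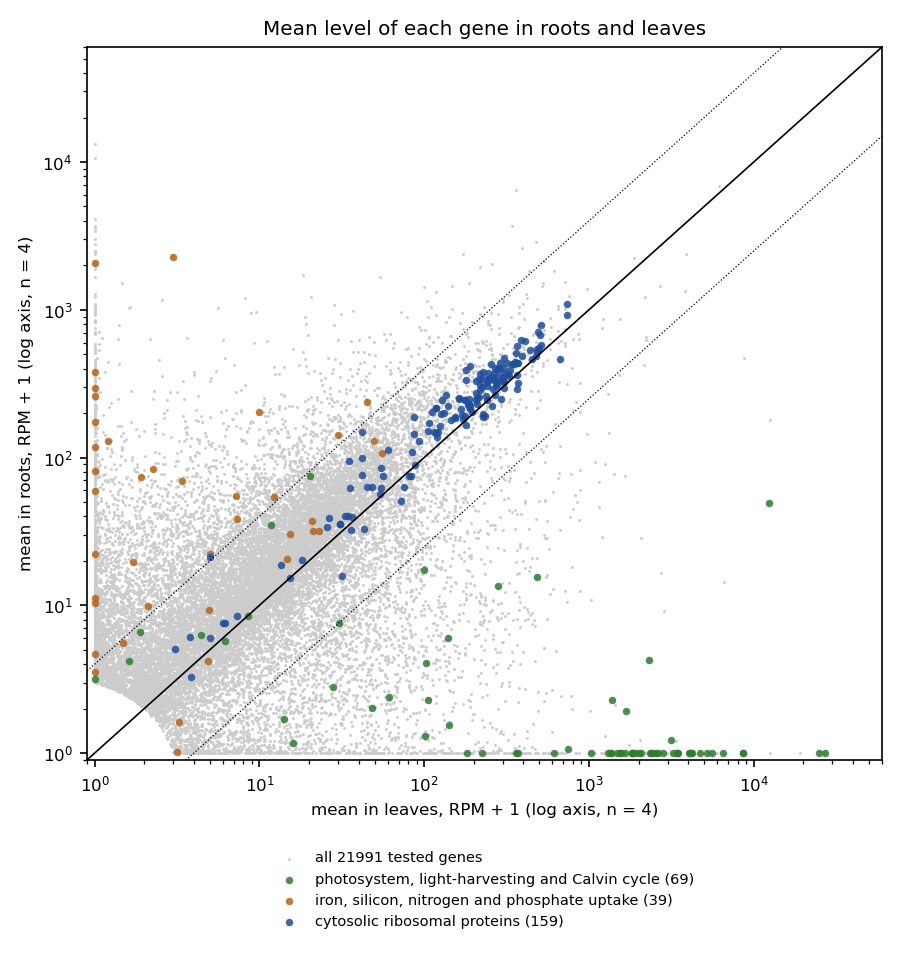
Mean RPM + 1 of each tested gene in leaves (x) against roots (y), both on log axes over 4 libraries, with the diagonal as a solid line and 4-fold differences as dotted lines. Genes of photosystems, light harvesting and the Calvin cycle (green) lie at the right, most of them on the x axis where the root value is listed at 0. Uptake genes of iron, silicon, nitrogen and phosphate (brown) lie mostly above the upper dotted line, and cytosolic ribosomal protein genes (blue) near the diagonal.

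The genes at least 4-fold higher in roots held 38.5 to 39.4% of root RPM and 2.51 to 3.03% of leaf RPM. Those at least 4-fold higher in leaves held 49.96 to 55.5% of leaf RPM and 1.30 to 1.44% of root RPM. In every one of the 4 lines the 4-fold difference was passed by 2836 of the root genes and 1816 of the leaf genes. A value of 0 in all 4 libraries of the other tissue was listed for 380 of the root genes (10.1%) and 255 of the leaf genes (11.8%). With the deducted reads added back, 3715 and 2115 of them stayed past 4-fold.

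The most abundant genes of each tissue, ranked among those at least 4-fold higher in all 4 lines, named different functions, apart from metallothioneins, which were among them in both tissues. In roots, metallothioneins, small cysteine-rich proteins that bind metal ions, led. MTI4C (Os12g0571100, chromosome 12) was at 13163, 13037, 13547 and 12858 RPM in roots and was listed at 0 in all 4 leaf libraries, which allows up to 63.7 RPM. MTI1A (Os11g0704500, chromosome 11) was at 6189.5, 5758, 6484 and 7519.7 RPM in roots and 221, 326, 473 and 416 RPM in leaves, a difference of 4.22 ± 0.17 (adjusted p = 5.86e-07). MT1G, next to MTI4C on chromosome 12, averaged 3008 ± 421 RPM in roots (SD, n = 4). The groups do not overlap for any of these, which the choice of genes at least 4-fold higher in all 4 lines largely ensures. In leaves the leading metallothionein was another gene, MTI3A on chromosome 1, with 24494, 19747, 17280.4 and 14550.0 RPM in leaves and a listed 0 in all 4 root libraries, which allows up to 134 RPM. Of the 12 tested metallothionein genes, 8 were at least 4-fold higher in roots and 3 in leaves. The metallothionein list summed to 29842 to 33041 RPM in roots and 19939 to 31280 RPM in leaves, ranges that overlap.

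The other leading root genes included RCc3 (3385 ± 498 RPM), a gene first described as root-specific, GER4, annotated as similar to nectarin (3555 ± 144 RPM), and 3 genes of chromosomes 2 and 9 annotated only as conserved hypothetical proteins. The other 2, Os02g0582900 and Os09g0409100, averaged 4093 ± 576 and 3702 ± 207 RPM. The highest, Os02g0583700, averaged 10577 ± 1343 RPM in roots and was listed at 0 in leaves. A phenylalanine ammonia-lyase gene, Os02g0626100, for the entry step of phenylpropanoid and lignin synthesis, was at 4603, 3491, 3431 and 3210.2 RPM in roots and 500.0, 379, 254 and 224 RPM in leaves, a difference of 3.50 ± 0.14 (adjusted p = 6.71e-07). OsSAMS1, which makes the methyl donor S-adenosylmethionine that is also a precursor of nicotianamine and ethylene, was 6.03-fold higher in roots (2884 ± 234 against 478 ± 55.7 RPM).

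Several of the leading leaf genes, the highest among them, were those of carbon fixation. RbcS3 (Os12g0291100, chromosome 12), a Rubisco small subunit, was at 27382, 27017, 27466 and 26559 RPM in leaves, and RBCS (Os12g0274700) at 26563, 26878, 25944 and 19682 RPM. Both were listed at 0 in all 4 root libraries, where a 0 allows up to 192 and 177 RPM. Plastocyanin (PC), the copper protein that carries electrons to photosystem I, averaged 8569.5 ± 257 RPM in leaves and Os01g0303000, a gene for CP12, a regulator that binds Calvin cycle enzymes, 12569 ± 624 RPM. BETACA1, a carbonic anhydrase, was present in both tissues, at 467, 415, 485 and 509 RPM in roots and 9075, 8975, 8401 and 8612 RPM in leaves, a difference of -4.22 ± 0.11 (adjusted p = 8.06e-08). DR8, annotated as a pathogen-induced protein, was at 148, 76.2, 274 and 220.4 RPM in roots and 9927, 10904, 13862 and 15215 RPM in leaves, a difference of -6.24 ± 0.23 (adjusted p = 4.18e-07), or -5.56 with the deducted reads added back.

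Photosynthesis genes were leaf genes almost throughout. Of 12 tested light-harvesting genes, 12 were at least 4-fold higher in leaves, with a median difference of -11.21 against 0.59 for all genes, or -7.10 with the deducted reads added back. Of 42 genes for photosystem and electron transport proteins, 38 were at least 4-fold higher in leaves. The 2 that were higher in roots were Os02g0631100, annotated as a PsbQ family protein, at 3.19 ± 0.677 against 0.608 ± 0.34 RPM, and ENODL23, a plastocyanin-like protein, at 2.2 ± 0.513 RPM in roots. Both are low in abundance. Among the leaf genes, CAB2R and OsPsbR3, a subunit of photosystem II, averaged 6513 ± 1155 and 5205 ± 669 RPM in leaves and were listed at 0 in roots. CAB1R (Os09g0346500, chromosome 9), a light-harvesting protein of photosystem II, was at 13298, 13633, 12334 and 10377 RPM in leaves and 190.2, 0, 3.94 and 0 RPM in roots. The NT root library alone held most of that root signal, and the difference was -11.12 with NT and -12.79 without it, both taking the listed 0 as given, and -6.78 over all 4 lines with the deducted reads added back. LIR1, a light-regulated protein that attaches the leaf ferredoxin-NADP reductase to the thylakoid membrane, was at 5248, 6767, 7126 and 7097 RPM in leaves and 0, 0, 30.9 and 22.5 RPM in roots, and its difference of -10.28 ranged from -11.11 to -9.47 with a line left out and was -6.74 with the deducted reads added back.

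Of 18 tested Calvin cycle genes, 13 were at least 4-fold higher in leaves. The 4 that were higher in roots included OsCPn60beta2 and Os03g0859600, which are annotated as Rubisco-binding chaperonins, general folding factors of plastids rather than cycle enzymes. OsCPn60beta2 averaged 33.9 ± 4.66 RPM in roots and 10.7 ± 1.83 RPM in leaves, and Os03g0859600 74.3 ± 4.82 and 19.1 ± 3.28 RPM. All 12 tested chlorophyll synthesis genes were at least 4-fold higher in leaves. Among them FGL, which encodes the light-dependent protochlorophyllide reductase PORB, averaged 598 ± 57.2 RPM in leaves and was listed at 0 in roots. PNZIP (CRD1), a cyclase of the same pathway, was at 586, 377, 436 and 418 RPM in leaves and 0, 0, 1.83 and 0.484 RPM in roots.

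Carotenoid and plastid translation genes differed less, and both tissues expressed them. Of 8 carotenoid genes, 5 were at least 4-fold higher in leaves. Phytoene synthase PSY1, the entry enzyme, was at 2.12, 0.915, 1.5 and 1.17 RPM in roots and 121, 112, 121 and 117 RPM in leaves, a difference of -5.64 ± 0.12 (adjusted p = 4.44e-08). The zeaxanthin epoxidase ABA1 differed by -4.62 ± 0.10 (adjusted p = 3.94e-08). DSM2, a beta-carotene hydroxylase, was the exception at 19.9 ± 1.54 RPM in roots and 13.6 ± 5.3 RPM in leaves, a difference of 0.60 ± 0.21 (adjusted p = 0.0286) close to the shift of all genes and was 0.05 after TMM rescaling, and the call was lost when NT, b83OX-13 or b83OX-19 was left out. Of 57 plastid ribosomal protein genes, 30 were at least 4-fold higher in leaves and 0 in roots. RPL12-2 was at 9.18, 10.1, 12.7 and 11.9 RPM in roots and 754, 586, 494 and 496 RPM in leaves, a difference of -5.59 ± 0.18 (adjusted p = 2.08e-07). Os01g0633000, for ribosomal protein L31, differed by -3.91 ± 0.16 (adjusted p = 6.67e-07). The most abundant member called higher in roots, RPL27-1, differed by 0.71, close to the shift of all genes, and by 0.12, no longer called, after TMM rescaling.

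The cytosolic ribosomal protein genes differed little. Of 159, 97 were called higher in roots and 4 in leaves as deposited, but 13 and 72 after TMM rescaling, and their median difference went from 0.33 to -0.24. As deposited that median lies below the 0.59 of all genes, and only 1 of them passed 4-fold.

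Starch genes leaned to leaves, and sucrose genes were divided. Of 26 starch genes, 10 were at least 4-fold higher in leaves and 0 in roots. AGPS2 and AGPL1, subunits of ADP-glucose pyrophosphorylase, which makes the glucose donor for starch, averaged 169.9 ± 5.24 and 129 ± 4.41 RPM in leaves. In roots they averaged 7.87 ± 1.66 and 0.175 ± 0.199 RPM. OsMPG2, annotated as similar to the same enzyme, went the other way, at 41.8 ± 2.5 RPM in roots and 19.8 ± 1.79 RPM in leaves, as did the alpha-amylase gene Os04g0403300, at 24.3 ± 3.69 and 15.1 ± 0.735 RPM, a call lost after TMM rescaling. Of 22 tested genes for sucrose synthesis and cleavage, 12 were higher in roots and 8 in leaves, beside 58.6% and 24.5% of all tested genes. By at least 4-fold 6 (27.3%) and 6 (27.3%) were, beside 17.2% and 9.81% of all tested genes, or 3 and 7 after TMM rescaling. RSUS1, a sucrose synthase, was at 1474, 902, 1001 and 957 RPM in roots and 19.9, 30.8, 19.6 and 39.1 RPM in leaves, a difference of 5.29 ± 0.25 (adjusted p = 1.35e-06), and RSUS2 differed by 2.62 ± 0.08 (adjusted p = 1.77e-07). The neutral invertase NIN2 was at 16.2, 22.4, 25.6 and 27.9 RPM in roots and 697, 427, 675 and 478 RPM in leaves, a difference of -4.56 ± 0.21 (adjusted p = 1.12e-06). A second neutral invertase, NIN3, averaged 25.1 ± 0.818 and 90.4 ± 11 RPM. No root library overlaps a leaf library for any of these 4 genes, which choosing called genes makes likely. A further neutral invertase, NIN8, named after its values were seen, was higher in roots, at 287 ± 28 against 48.8 ± 1.01 RPM.

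Genes of low-oxygen metabolism and respiration were higher in roots. All 6 tested genes of alcoholic fermentation and related steps were higher in roots, 4 of them by at least 4-fold. ADH2, an alcohol dehydrogenase, was at 1178, 1186, 974 and 1058 RPM in roots and listed at 0 in leaves (allowing 5.21 RPM), and Hb1, a non-symbiotic haemoglobin, at 2324, 1708, 1370.2 and 1229 RPM in roots and also at 0 in leaves (allowing 7.63 RPM). Of 36 mitochondrial respiration genes, 34 were higher in roots and 1 in leaves, with 30 and 3 after TMM rescaling. By at least 4-fold 7 were higher in roots (19.4%, against 17.2% of all tested genes) and after TMM rescaling 2, and the median as deposited was 1.52. The cytochrome c oxidase subunit genes Os03g0772800 and Os07g0647500 averaged 901 ± 12.6 and 825 ± 41.7 RPM in roots and 228 ± 13.5 and 194 ± 4.42 RPM in leaves. The latter differed by 2.08 ± 0.08 (adjusted p = 4.56e-07).

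**Figure D2:**
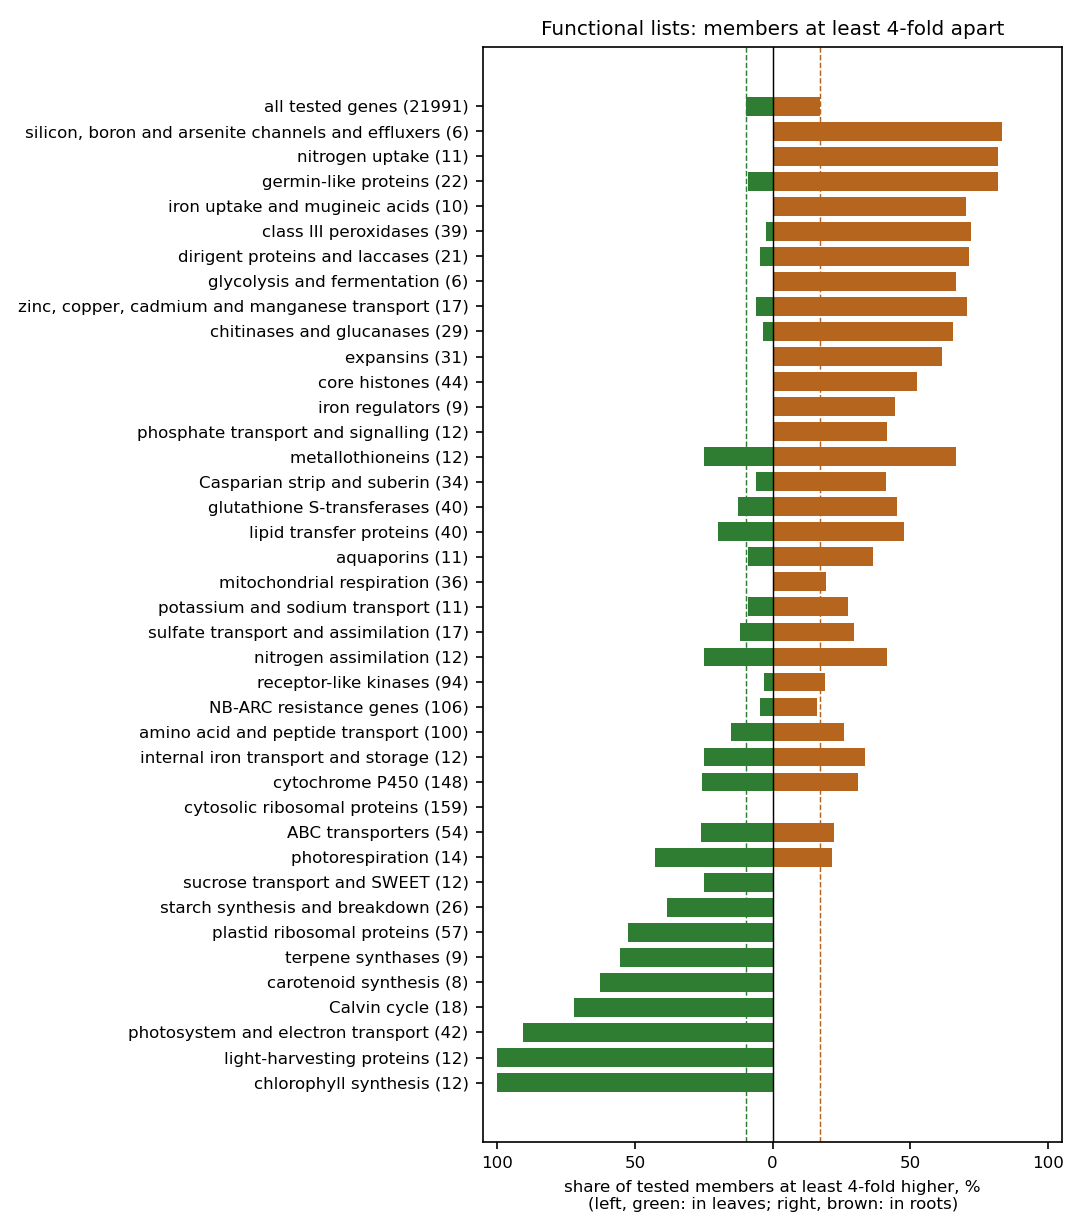
Share of each list's tested genes, in percent, that were at least 4-fold higher in roots (brown, right) or in leaves (green, left), with the number tested in brackets and dashed lines at the 17.2% and 9.81% of all tested genes. Photosynthesis, chlorophyll, plastid ribosome and starch lists extend to the left and uptake, peroxidase, germin-like and chitinase lists to the right; after TMM rescaling (12.5% and 12.5% of all genes) more genes of the sulfate, amino acid transport and cytochrome P450 lists were 4-fold higher in leaves than in roots, against fewer as deposited.

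Several enzymes were encoded by one gene in roots and another in leaves. Ferredoxin-NADP reductase moves electrons between ferredoxin and NADP, toward NADPH in chloroplasts and toward reduced ferredoxin in root plastids. The leaf genes OsLFNR1 and OsLFNR2 averaged 1013 ± 15.9 and 2186 ± 171 RPM in leaves and were listed at 0 in all root libraries. FNR (Os03g0784700, chromosome 3) was at 509, 434, 459 and 460.2 RPM in roots and 30.3, 27.4, 25.5 and 28 RPM in leaves, a difference of 4.02 ± 0.08 (adjusted p = 2.58e-08). A further member, Os07g0147900, had 41.3 ± 3.58 RPM in roots and 31.9 ± 2.02 RPM in leaves, and its difference of 0.36 ± 0.09 (adjusted p = 0.00848) turned to -0.21 after TMM rescaling.

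Ferredoxins, the small iron-sulfur carriers that serve these enzymes, split likewise. Fd1 averaged 4029.9 ± 170.1 RPM in leaves and was listed at 0 in roots. OsFd3 was at 562, 558, 475 and 483 RPM in roots and 25.5, 33.1, 54.1 and 42.1 RPM in leaves, a difference of 3.76 ± 0.21 (adjusted p = 2.67e-06), and the gene named Fd (Os05g0443500) differed by 3.65 ± 0.09 (adjusted p = 8.42e-08). Os01g0860601, annotated as similar to a root ferredoxin, averaged 214 ± 41.3 and 53.9 ± 19.5 RPM. OsDjC13 and HDY1, both annotated as similar to ferredoxin, averaged 218 ± 5.45 and 202 ± 5.46 RPM in leaves and were listed at 0 in 3 and 2 of the 4 root libraries. OsFdC1 and Os04g0412200 averaged 4.38 ± 0.719 and 2.4 ± 0.607 RPM in roots and 151 ± 11.3 and 26.2 ± 9.44 RPM in leaves, and Os03g0295400 13.3 ± 1.08 and 16.8 ± 1.77 RPM, a call lost when NT, b83OX-15 or b83OX-19 was left out. Of the 9 ferredoxin genes, 3 were at least 4-fold higher in roots and 5 in leaves.

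Ammonium assimilation runs through glutamine synthetase and glutamate synthase. The cytosolic glutamine synthetase GLN1;2 (Os03g0223400, chromosome 3) was at 907, 696, 858 and 1089 RPM in roots and 20.7, 10.2, 24.9 and 15.4 RPM in leaves, a difference of 5.61 ± 0.17 (adjusted p = 2.00e-07). The plastid enzyme GS2 (Os04g0659100, chromosome 4) went the other way, at 120.1, 70.2, 86.7 and 82.9 RPM in roots and 1475, 1241, 1229 and 1061 RPM in leaves, a difference of -3.80 ± 0.11 (adjusted p = 1.35e-07). GLN1;1 averaged 818 ± 77.3 RPM in roots and 163 ± 13.7 RPM in leaves, and OsGLN1;3, at 1.09 RPM in roots and 0.0657 RPM in leaves, was too low to be tested. The NADH-dependent glutamate synthase GLT1 averaged 151 ± 11.6 RPM in roots and 35.7 ± 6.19 RPM in leaves, whereas the ferredoxin-dependent enzyme (ABC1) averaged 43.5 ± 3.04 and 355 ± 22.1 RPM. GLT2, the second NADH-dependent gene, was higher in leaves, at 3.3 ± 0.613 against 36.6 ± 12.3 RPM. ASN1, an asparagine synthetase named after its values were seen, was at 309, 154, 217 and 431 RPM in roots and listed at 0 in 3 of 4 leaf libraries.

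Catalases, which remove hydrogen peroxide, were divided among 3 genes. CATB (Os06g0727200, chromosome 6) was at 633, 588, 613 and 664 RPM in roots and 55, 60.4, 57.9 and 56.4 RPM in leaves, a difference of 3.42 ± 0.08 (adjusted p = 7.45e-08). CATA was at 61.3, 96, 68.4 and 71.3 RPM in roots and 1878, 1429, 1631 and 1671 RPM in leaves, a difference of -4.47 ± 0.16 (adjusted p = 3.98e-07). CATC averaged 1739 ± 41 RPM in leaves and was listed at 0 in all root libraries, which allows up to 12.3 RPM. Glycolate oxidase, the peroxisomal enzyme of photorespiration that makes hydrogen peroxide, also split. GLO1 and GLO5 averaged 1961 ± 84.4 and 1248 ± 71.8 RPM in leaves, GLO1 being listed at 0 in all root libraries and GLO5 in 3 of 4. GLO3 was at 38.7, 41.6, 38.1 and 33.3 RPM in roots and 3.64, 4.96, 2.48 and 2.76 RPM in leaves, a difference of 3.15 ± 0.13 (adjusted p = 6.66e-07). GLO2 and GLO4 were higher in leaves by less than 4-fold, at 9.79 ± 0.248 and 27.9 ± 2.48 RPM in roots and 25.4 ± 0.78 and 48.2 ± 3.19 RPM in leaves. Of 14 photorespiration genes, 6 were at least 4-fold higher in leaves and 3 in roots. A pair of glycine cleavage H-protein genes show the split, OsGDCH with 1389.8 ± 122 RPM in leaves and a listed 0 in roots, and Os02g0170100 with 373 ± 25.1 RPM in roots and 18.8 ± 5.83 RPM in leaves.

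The Rubisco small subunit family had 1 member out of step. RbcS5 and RbcS, on chromosome 12 like RbcS3 and RBCS, averaged 8617 ± 1958 and 4072 ± 609.5 RPM in leaves and were listed at 0 in roots. Reads of these near-identical genes may be split between them, so the level of each is uncertain. RbcS1 (Os02g0152400), on chromosome 2 and apart from the chromosome 12 genes, was at 11.4, 4.47, 3.32 and 3.23 RPM in roots and 1.01, 1.18, 0.74 and 0.631 RPM in leaves, a difference of 1.66 ± 0.24 (adjusted p = 4.82e-04). Its NT root library was the highest, and all root libraries were above all leaf libraries.

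**Figure D3:**
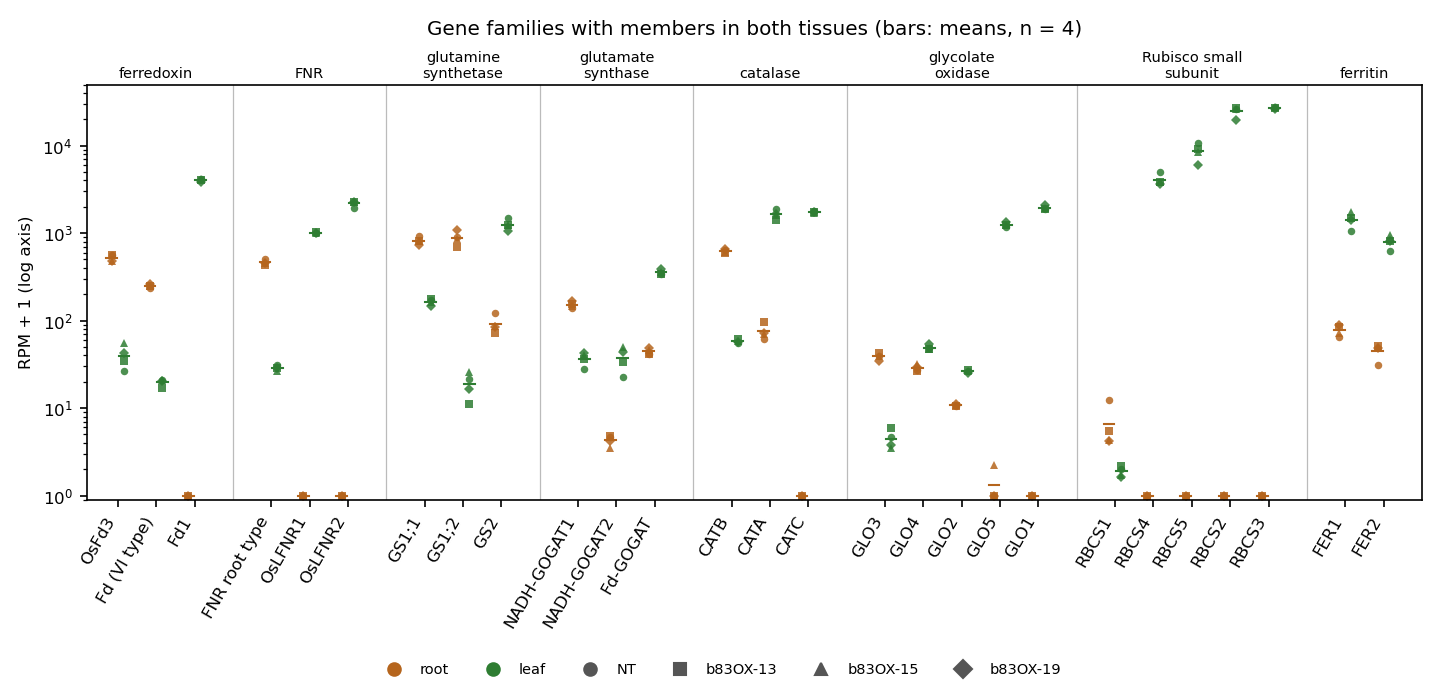
RPM + 1 on a log axis for members of 8 gene families, with a symbol for each of the 8 libraries, roots in brown and leaves in green, and bars at the means (n = 4). The root-type FNR, GS1;2 (GLN1;2) and CATB sit higher in the 4 root libraries, and OsLFNR2, GS2 (Os04g0659100) and CATC higher in the 4 leaf libraries, with no overlap.

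Genes for mineral uptake and export were mostly root genes. All 6 tested genes for silicon, boron and arsenite channels and effluxers were higher in roots, 5 by at least 4-fold, with a median difference of 6.17, or 5.52 with the deducted reads added back. LSI1 (Os02g0745100, chromosome 2), the channel that lets silicic acid into root cells, was at 2586, 1708, 2565 and 2292 RPM in roots and 0, 4.33, 3.66 and 0 RPM in leaves, a difference of 9.98 ± 0.50 (adjusted p = 1.86e-06), or 7.33 with the deducted reads added back. LSI2 (Os03g0107300, chromosome 3), the exporter that hands silicon on toward the xylem, was at 2428, 1539.6, 2211 and 2069.6 RPM in roots and listed at 0 in all leaf libraries, which allows up to 9.99 RPM. Both were lowest in the b83OX-13 root library and far above every leaf library in all 4. LSI6, a related channel known for unloading silicon from the xylem in shoots, was present in both tissues, at 119, 125, 144 and 123 RPM in roots and 53.6, 48, 47 and 45.6 RPM in leaves, a difference of 1.38 ± 0.10 (adjusted p = 9.16e-06). LSI3, a further silicon exporter, averaged 258 ± 42.2 RPM in roots and was listed at 0 in leaves. The boron exporter BOR1 and the boric acid channel NIP3;1 averaged 68 ± 8.19 and 52.7 ± 1.14 RPM in roots and 2.39 ± 0.209 and 11.3 ± 1.54 RPM in leaves. LSI3, BOR1 and NIP3;1 were named after their values were seen.

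**Figure D4:**
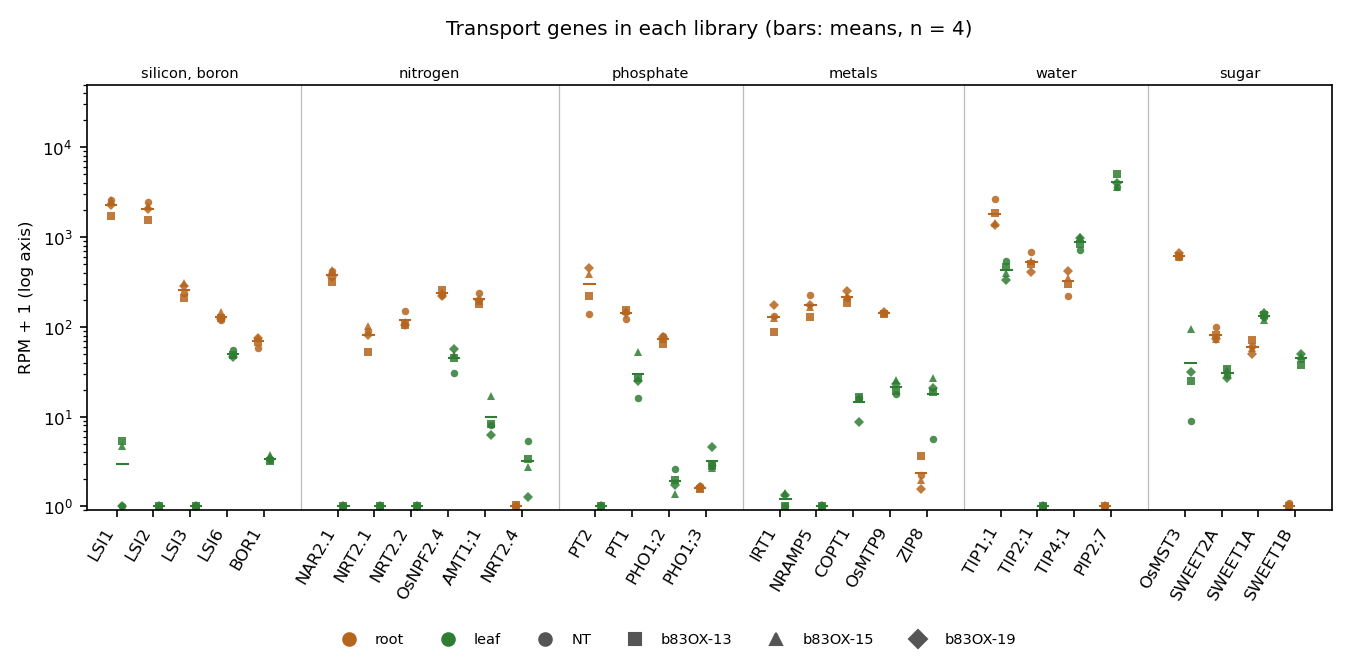
RPM + 1 on a log axis for transport genes of silicon and boron, nitrogen, phosphate, metals, water and sugar, with a symbol for each of the 8 libraries, roots in brown and leaves in green, and bars at the means (n = 4). LSI1 is at 1708 RPM or more in all root libraries and at most 4.33 RPM in leaves, while PIP2;7 and SWEET1B sit higher in leaves.

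Nitrogen uptake genes were likewise mostly higher in roots, with 9 of 11 tested genes at least 4-fold higher there, or 6 after TMM rescaling. NAR2.1 (Os02g0595900, chromosome 2), the partner protein that the high-affinity nitrate transporters need, was at 419.7, 315, 423 and 362 RPM in roots and listed at 0 in all leaf libraries (allowing 1.85 RPM). NRT2.1 and NRT2.2, 2 of those transporters, averaged 80.5 ± 21.2 and 117 ± 21 RPM in roots, also against a listed 0, and their reads may be split between the 2 because their coding sequences are near-identical. They were named, as were NRT2.3 (18.6 ± 2.46 against 0.711 ± 0.48 RPM) and the ammonium transporters, after their values were seen. The ammonium transporter AMT1;1 was at 237, 179, 195 and 200.4 RPM in roots and 6.97, 7.3, 16.1 and 5.19 RPM in leaves, a difference of 4.47 ± 0.24 (adjusted p = 2.50e-06), and AMT1;2 differed by 5.24 ± 0.12 (adjusted p = 5.42e-08). The nitrate transporter OsNPF2.4, of another family, averaged 235 ± 15.9 and 44.1 ± 11 RPM. NRT1.1B, a dual-affinity nitrate transporter, averaged 37.3 ± 9.64 and 6.34 ± 1.85 RPM and OsNRT1.1A 29.3 ± 2.13 and 14.3 ± 2.73 RPM, again named after their values were seen. The exception was NRT2.4, low in both tissues and higher in leaves, at 2.17 ± 1.68 RPM against 0.0203 ± 0.0141 RPM in roots.

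For phosphate, 5 of 12 tested genes were at least 4-fold higher in roots and 0 in leaves, and after TMM rescaling 3 were. Of the 12, 10 were called higher in roots and 1 in leaves, or 7 and 2 after TMM rescaling. PT2, a phosphate transporter, was at 139, 219.8, 382 and 446 RPM in roots and listed at 0 in 3 of 4 leaf libraries. PT1 was at 120.1, 151, 150.5 and 142 RPM in roots and 15.2, 25.9, 51.2 and 24 RPM in leaves, a difference of 2.36 ± 0.21 (adjusted p = 3.11e-05). PHO1;2, which loads phosphate into the xylem, averaged 72.6 ± 6.32 RPM in roots and 0.914 ± 0.512 RPM in leaves, while PHO1;3 went the other way at 0.621 ± 0.0677 and 2.23 ± 0.899 RPM. Among 11 potassium and sodium transport genes, 3 (27.3%) were at least 4-fold higher in roots and 1 (9.09%) in leaves, beside 17.2% and 9.81% of all tested genes. The potassium carrier OsHAK1 (LCS) was at 160.0, 131, 137 and 144 RPM in roots and 8.47, 19.99, 49.8 and 23.5 RPM in leaves, a difference of 2.69 ± 0.37 (adjusted p = 3.46e-04), and SOS1, a sodium exporter, averaged 39.4 ± 4.84 and 10.6 ± 1.17 RPM. The xylem-loading potassium channel SKOR, named after its values were seen, averaged 25.7 ± 6.3 and 0.178 ± 0.109 RPM. The sodium transporter gene HKT4 was higher in leaves, at 4.55 ± 1.09 RPM against 0.142 ± 0.183 RPM, as was the potassium carrier HAK5, at 5.36 ± 4.68 RPM against 0.77 ± 0.344 RPM, a call lost without b83OX-19.

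Sulfate genes did not favour a tissue as a group, with 8 of 17 higher in roots and 8 in leaves, and a median that went from 0.29 to -0.30 under TMM rescaling. Individual steps did. The ATP sulfurylase OsATPS, for the first step of assimilation, averaged 414 ± 60.05 RPM in roots and 57.5 ± 12.8 RPM in leaves, whereas a second gene annotated for that enzyme, Os04g0111200, averaged 42.6 ± 5.65 and 107 ± 11 RPM. OsAPRL1, annotated as an adenosine phosphosulfate reductase, differed by 2.29 ± 0.16 (adjusted p = 9.59e-06), and the transporter gene SULTR5;1 averaged 80.3 ± 7.36 and 121 ± 22.4 RPM.

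Among 17 zinc, copper, cadmium and manganese transport genes, 12 were at least 4-fold higher in roots and 1 in leaves. The copper transporter COPT1 was at 208, 183, 222 and 250.3 RPM in roots and 15.2, 15.5, 15 and 7.73 RPM in leaves, a difference of 3.95 ± 0.22 (adjusted p = 2.72e-06). OsMTP9, a manganese exporter, differed by 2.76 ± 0.11 (adjusted p = 5.27e-07), and HMA5, a copper pump named after its values were seen, averaged 73.5 ± 5.83 RPM in roots and 1.11 ± 0.661 RPM in leaves. ZIP8 was the gene at least 4-fold higher in leaves, at 17 ± 9.01 RPM against 1.35 ± 0.881 RPM, and the manganese transporter OsMTP8.1 averaged 16.1 ± 1.94 and 24.1 ± 3.83 RPM.

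Water channels and sugar carriers divided by member. Of 11 aquaporins, 9 were higher in roots and 2 in leaves, beside 58.6% and 24.5% of all tested genes. The tonoplast channel TIP2;1, named after its values were seen, averaged 532 ± 118 RPM in roots and was listed at 0 in leaves, and TIP1;1 was at 2634, 1866, 1422 and 1375 RPM in roots and 541, 464, 398 and 329 RPM in leaves, a difference of 2.05 ± 0.10 (adjusted p = 1.78e-06). The plasma membrane channel PIP2;7 was the reverse, at 3585, 5097, 3597 and 4017 RPM in leaves and a listed 0 in all root libraries, which allows up to 29.5 RPM. TIP4;1 averaged 320.1 ± 82 RPM in roots and 886 ± 137 RPM in leaves, a difference of -1.49 ± 0.10 (adjusted p = 7.33e-06). Sucrose transporters and SWEET exporters leaned to leaves, with 7 of 12 higher there and 3 in roots, beside 24.5% and 58.6% of all tested genes. SWEET1A and SUT2 averaged 59.2 ± 8.64 and 52.6 ± 2.97 RPM in roots and 130.0 ± 9.73 and 72 ± 12.5 RPM in leaves, and SWEET2A and SUT4, on the root side, 80.6 ± 12.6 and 22.1 ± 1.54 RPM in roots and 29.8 ± 3.68 and 11.2 ± 2.13 RPM in leaves. SWEET1B, named after its values were seen, averaged 43.7 ± 5.38 RPM in leaves and was listed at 0 in 3 of 4 root libraries. Of 30 monosaccharide carriers, 17 were higher in roots and 6 in leaves. By at least 4-fold 6 (20%) and 3 (10%) were, near the 17.2% and 9.81% of all tested genes, or 6 and 5 after TMM rescaling. The carrier OsMST3 was at 602, 609.6, 601 and 671 RPM in roots and 7.86, 24.2, 93.6 and 30.4 RPM in leaves, a difference of 4.45 ± 0.47 (adjusted p = 8.64e-05) and of 5.04 without b83OX-15. Another gene of that kind, Os02g0573500, averaged 174 ± 16.4 and 0.667 ± 0.401 RPM, and on the leaf side Os03g0197100, annotated as similar to a sugar transporter, averaged 4.19 ± 2.52 RPM in roots and 43.1 ± 14.2 RPM in leaves.

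Iron acquisition genes were root genes even with sufficient iron. All 10 tested genes for iron uptake and mugineic acid synthesis were higher in roots, 7 by at least 4-fold, with a median difference of 3.41. After TMM rescaling 8 were called higher in roots, 6 by at least 4-fold. The ferrous iron transporter OsIRT1 (listed as ZIP10, Os03g0667500, chromosome 3) was at 131, 86.5, 125 and 172 RPM in roots and 0, 0.0228, 0.424 and 0.35 RPM in leaves, a difference of 6.73 ± 0.15 (adjusted p = 4.27e-08), or 6.13 with the deducted reads added back. NRAMP5 (Os07g0257200, chromosome 7), the main manganese and cadmium uptake transporter, which can also carry iron, was at 225, 128, 164 and 174 RPM in roots and listed at 0 in 3 of 4 leaf libraries. Nicotianamine synthases NAS1 and NAS2 were at 59.3, 33.9, 59.9 and 80.8 and at 16.5, 15.5, 23.2 and 30.2 RPM in roots, both against a listed 0 in leaves, and reads of this similar pair may be split between them. For each of these every root library is above every leaf library, which for OsIRT1 and NRAMP5 choosing called genes makes likely.

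The genes of deoxymugineic acid export and re-uptake were low but detected. TOM1, the efflux transporter, averaged 9.36 ± 1.14 RPM and YSL15, the importer of the ferric complex, 10.2 ± 2.87 RPM in roots, and both were listed at 0 in leaves, where a 0 allows up to 0.0461 and 0.0491 RPM. DMAS1, for the last synthesis step, was expressed in both tissues, at 36.2 ± 6.32 RPM in roots and 19.8 ± 3.07 RPM in leaves, a difference of 0.83 ± 0.14 (adjusted p = 0.00103), and 0.27, no longer called, after TMM rescaling. NAAT1, for the step before, was at 6.35, 7.5, 7.41 and 11.8 RPM in roots and 0.472, 13.2, 1.62 and 0.467 RPM in leaves, a difference of 1.60 ± 0.56 (adjusted p = 0.0326) and of 2.38 without b83OX-13, whose leaf library was the highest of the leaf libraries, and the call was lost when NT, b83OX-15 or b83OX-19 was left out. OsIRT2, the second ferrous iron carrier, and NRAMP1 averaged 2.51 ± 0.55 and 8.87 ± 0.824 RPM in roots. TOM1, YSL15, DMAS1, NAAT1, OsIRT2 and NRAMP1 were named after their values were seen.

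Iron regulators were called higher in roots in 8 of 9 cases, beside 58.6% of all tested genes, and 4 by at least 4-fold. After TMM rescaling 6 were called higher in roots and 2 were 4-fold higher. OsbHLH156 and OsIRO2, which act together to switch on the uptake genes, averaged 12.3 ± 1.81 and 6.31 ± 1.8 RPM in roots, with OsIRO2 listed at 0 in all leaf libraries and OsbHLH156 in 2 of 4. OsbHLH058, an upstream activator, was at 474, 438, 437 and 437 RPM in roots and 113, 109, 98.1 and 86.4 RPM in leaves, a difference of 2.13 ± 0.09 (adjusted p = 6.98e-07). Its relatives OsbHLH059 and OsbHLH060 were called higher in roots at 0.51 and 0.36, but under TMM rescaling these became -0.07 and -0.23. IDEF2 (listed as NAC36), an iron-responsive NAC factor, differed by 2.57 ± 0.11 (adjusted p = 6.88e-07), and IDEF1 was the member higher in leaves, at 14.4 ± 1.26 RPM in roots and 36.6 ± 3.29 RPM in leaves. The ubiquitin ligase gene HRZ2 (listed as OsRFPH2-24), a repressor of the iron response, averaged 17.4 ± 3.28 and 3.57 ± 0.34 RPM, and OsIRO3, another repressor, 12.4 ± 2.43 and 4.06 ± 0.586 RPM. Of these regulators, OsbHLH156, OsIRO2, OsbHLH059, HRZ2 and OsIRO3 were named after their values were seen.

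Internal handling of iron was divided between the tissues. Of 12 genes, 4 were at least 4-fold higher in roots and 3 in leaves. FER1 and FER2, the plastid ferritins that store iron, were leaf genes, a closely similar pair between which reads may be split. FER1 (Os11g0106700, chromosome 11) was at 63.9, 82.9, 71 and 88.4 RPM in roots and 1060.0, 1469, 1743 and 1395 RPM in leaves, a difference of -4.18 ± 0.12 (adjusted p = 1.49e-07). FER2 (chromosome 12) was at 29.8, 49.6, 48.8 and 48 RPM in roots and 618, 819.9, 944 and 809 RPM in leaves, a difference of -4.16 ± 0.09 (adjusted p = 4.16e-08). The vacuolar iron transporter OsVIT1;2 averaged 5.02 ± 1.38 RPM in roots and 37.6 ± 6.14 RPM in leaves, while the citrate exporter OsFRDL1, which helps load iron into the xylem, averaged 68 ± 3.45 RPM in roots and 1.31 ± 0.327 RPM in leaves, a difference of 4.91 ± 0.12 (adjusted p = 6.19e-08). YSL16 and PEZ1 did not pass the test as deposited, with 55.9 ± 12.9 and 23.7 ± 7.03 RPM in roots and 53.5, 55.8, 75.2 and 57.1 RPM for YSL16 and 28.4 ± 4.48 RPM for PEZ1 in leaves. MIT, which brings iron into mitochondria, and OsVIT2 were called higher in leaves at -0.46 and -0.37, the latter not without the line block. These 4 genes and OsVIT1;2 were named after their values were seen. NAS3, the third nicotianamine synthase gene, was at 25.2, 63.7, 71.4 and 76.4 RPM in roots and 21.8, 5, 7.06 and 4.51 RPM in leaves, a difference of 2.65 ± 0.56 (adjusted p = 0.00327). In NT the root value was close to the leaf value and in the 3 overexpression lines roots were far higher, and without NT the difference was 3.47.

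Wall and barrier protein genes were mostly higher in roots. Class III peroxidases are secreted enzymes of wall cross-linking. Of 39 genes annotated as haem or plant peroxidases or as peroxidase precursors, 28 were at least 4-fold higher in roots and 1 in leaves. That list misses genes described in other words. Of 96 tested genes described as any peroxidase other than ascorbate, glutathione, thioredoxin or haloperoxidases, a set chosen after the values were seen, 70 were at least 4-fold higher in roots and 3 in leaves. In the list of 39, prx45 and prx95 averaged 1268 ± 120.2 and 918 ± 109 RPM in roots and prx29 353 ± 139 RPM in leaves, each listed at 0 in the other tissue. In the wider set prx59 averaged 1717 ± 263 RPM in roots and 17.3 ± 17.4 RPM in leaves, a difference of 7.01 ± 0.51 (adjusted p = 1.13e-05), or 6.21 with the deducted reads added back and 7.64 without b83OX-15. POX5.1 was at 144, 633, 481 and 468 RPM in leaves and listed at 0 in all root libraries. Both were named after their values were seen. Of 31 expansins, which loosen walls during growth, 19 were at least 4-fold higher in roots and 0 in leaves. EXPB2 was at 388, 304, 310.1 and 312 RPM in roots and 8.47, 3.63, 3.08 and 0.94 RPM in leaves, a difference of 6.25 ± 0.28 (adjusted p = 1.11e-06), and EXPB6 averaged 145 ± 32.7 and 0.495 ± 0.434 RPM. Of 21 dirigent and laccase genes, 15 were at least 4-fold higher in roots, and of 34 Casparian strip and suberin genes 14 were and 2 were in leaves. Os11g0649600 and Os07g0442900, annotated only as the UPF0497 family that includes the Casparian strip membrane proteins, averaged 585 ± 96.2 and 533 ± 38 RPM in roots and were listed at 0 in 3 of 4 leaf libraries. LPR3, a multicopper oxidase, averaged 187 ± 58.8 RPM and the laccase LAC3 112 ± 23.4 RPM in roots, listed at 0 in 4 and 3 of the leaf libraries. LPR2, another multicopper oxidase, was the exception at 0.895 ± 0.411 RPM in roots and 23.5 ± 2.79 RPM in leaves. The cutin and wax list was divided, with 3 of 7 higher in roots and 4 in leaves, 3 and 3 by at least 4-fold (2 and 4 after TMM rescaling), and a median of -1.73.

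Lists of defence and detoxification genes did not all favour roots. Of 148 cytochrome P450 genes, 46 were at least 4-fold higher in roots and 38 in leaves (39 and 44 after TMM rescaling), of 74 UDP-glycosyltransferases 17 and 13 (14 and 18), and of 54 ABC transporters 12 and 14 (10 and 14). Of 29 chitinases and glucanases, 19 were at least 4-fold higher in roots, and of 22 germin-like proteins 18. CHT2 was at 1099.7, 884, 726 and 722 RPM in roots and listed at 0 in all leaf libraries, and the germin-like genes GLP8-7 and GLP8-11 averaged 747 ± 58.8 and 1022 ± 111 RPM in roots, also against a listed 0. DIP3, a class III chitinase-like xylanase inhibitor, was at 1019.8, 1015, 749.7 and 771 RPM in roots and 258, 97.1, 96.3 and 112 RPM in leaves, a difference of 2.77 ± 0.21 (adjusted p = 1.37e-05), its NT leaf library being the highest of the leaf libraries. Of 40 glutathione S-transferases, 18 were at least 4-fold higher in roots and 5 in leaves, or 16 and 8 after TMM rescaling. GSTF2 averaged 2373 ± 202 RPM in roots and 171 ± 16.2 RPM in leaves, and GSTU36 454 ± 148 RPM in roots and 1.46 ± 2.03 RPM in leaves, a difference of 7.79 ± 0.38 (adjusted p = 1.48e-06), or 6.65 with the deducted reads added back. Of 10 diterpenoid phytoalexin genes, 6 were at least 4-fold higher in roots and 1 in leaves, with CPS4 and MAS, of the momilactone pathway, at 20.2, 56.1, 31.7 and 22.6 and at 59.4, 198, 104 and 81.9 RPM in roots, and at 0, 0.16, 2.02 and 0.374 and at 0, 0.0326, 1.84 and 0 RPM in leaves. CPS2 and KO4 were higher in leaves, at 4.71 ± 2.48 and 19.4 ± 4.95 RPM against 0.185 ± 0.231 and 4.79 ± 2.63 RPM. Of 9 tested genes annotated as terpene or terpenoid synthases, CPS2 among them, 5 were at least 4-fold higher in leaves and 0 in roots, led by OsTPS29 (108 ± 24.2 RPM in leaves, listed at 0 in roots) and OsTPS3 (34.7 ± 19 against 0.159 ± 0.112 RPM).

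Histone and cyclin genes were mostly higher in roots. Of 44 core histone genes, 23 were at least 4-fold higher in roots and 0 in leaves, with a median difference of 2.303. Of 4 tested cyclins and B-type CDKs, 4 were called higher in roots and 2 were 4-fold higher, or 2 and 1 after TMM rescaling. The mitotic cyclin CYCB1;1 was at 29.5, 23.6, 22.3 and 25.8 RPM in roots and 0.226, 0.283, 0.31 and 0.244 RPM in leaves, a difference of 4.37 ± 0.13 (adjusted p = 1.48e-07). The part of root tip or growing tissue in the sampled material was not tested.

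Transcription factors divided by family. Of 63 WRKY genes, 24 were at least 4-fold higher in roots and 2 in leaves, of 43 bZIP genes 17 and 2, of 76 bHLH genes 21 and 6, and of 75 MYB genes 18 and 5 (14 and 8 after TMM rescaling). ERF62, of the AP2/ERF family, was at 1083, 1210.0, 1272 and 1326 RPM in roots and 17.1, 13.2, 33.1 and 15 RPM in leaves, a difference of 5.98 ± 0.20 (adjusted p = 2.67e-07). OsMYB48 was at 541, 508, 712 and 712 RPM in roots and 6.8, 11, 13.1 and 9.47 RPM in leaves, a difference of 5.82 ± 0.14 (adjusted p = 6.03e-08). Neither gene's tissues overlap, which choosing called genes makes likely. WRKY68 differed by 3.11 ± 0.21 (adjusted p = 7.56e-06), and WRKY53 only by 0.31, which turned to -0.28 after TMM rescaling and was not called without NT, b83OX-13 or b83OX-19. Of 10 LBD genes, 6 were at least 4-fold higher in roots and 0 in leaves. OsLBD38 averaged 76.8 ± 12.9 and 7.24 ± 3.33 RPM, and the bZIP gene BZIP56 144 ± 19.96 and 1.59 ± 0.548 RPM.

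**Figure D5:**
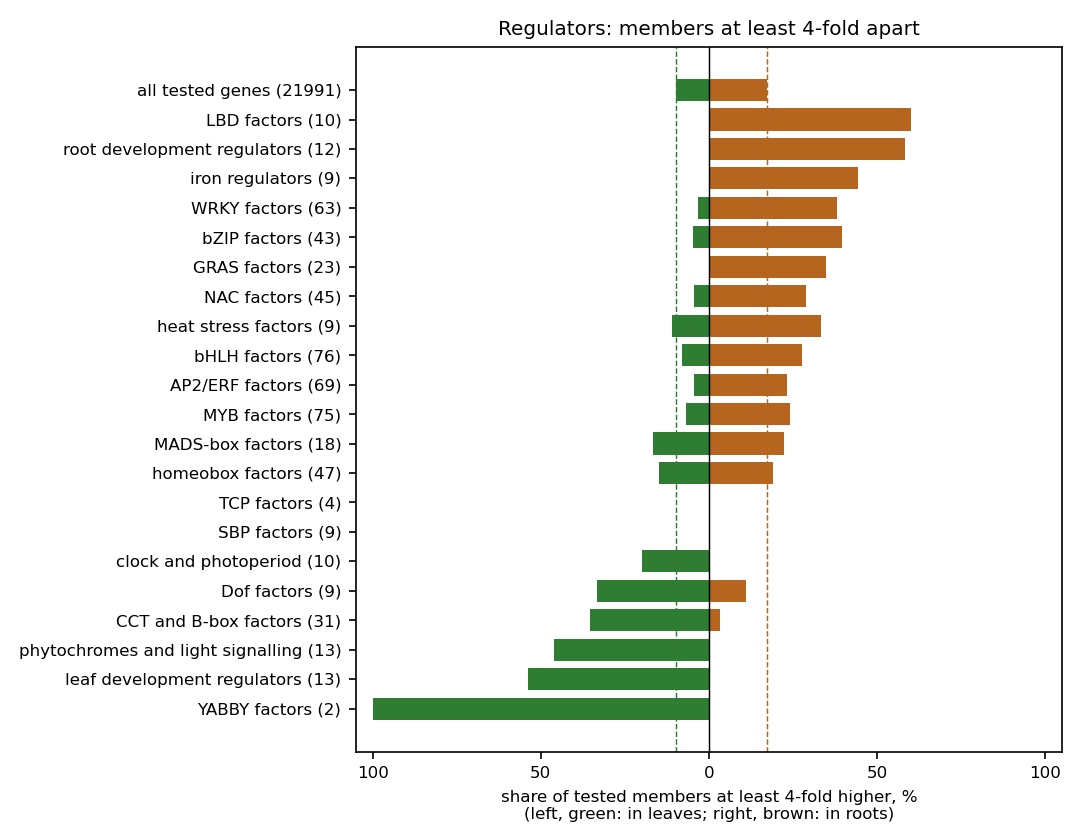
Share of each regulator family's tested genes, in percent, that were at least 4-fold higher in roots (brown, right) or in leaves (green, left), with the number tested in brackets and dashed lines at the shares of all tested genes. LBD, root development, WRKY and bZIP genes extend to the right and YABBY, leaf development, light signalling and CCT genes to the left; homeobox and MADS-box genes had more root than leaf members as deposited and fewer after TMM rescaling.

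Families of light and photoperiod response leaned to leaves. Of 31 CCT and B-box genes, 11 were at least 4-fold higher in leaves and 1 in roots. OsBBX20 was at 7.52, 5.1, 5.39 and 7.4 RPM in roots and 241, 222, 236 and 195 RPM in leaves, a difference of -4.94 ± 0.13 (adjusted p = 1.02e-07), and OsCCT03 averaged 0.849 ± 0.674 and 199 ± 18.7 RPM, while OsBBX22 was the root exception at 113 ± 10.7 against 13 ± 4.63 RPM. Clock genes were called higher in leaves in 9 of 10 cases, but only 2 by 4-fold. PRR95, a clock pseudo-response regulator, was at 42, 37.9, 40.6 and 41.3 RPM in roots and 395, 337, 427 and 394 RPM in leaves, a difference of -3.23 ± 0.08 (adjusted p = 7.79e-08), whereas GI, another clock gene, averaged 453 ± 22.4 and 558 ± 35.9 RPM, a call lost without b83OX-13 or b83OX-15. The labels give no time of day for either tissue.

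Regulators of organ identity and plastids mostly went with their organs. Of 13 leaf development genes, 10 were called higher in leaves and 2 in roots, 7 and 0 by at least 4-fold. After TMM rescaling 10 and 2 were called, 8 and 0 by at least 4-fold. The plastid sigma factors SIGA and SIG6, which direct transcription of chloroplast genes, averaged 189 ± 14 and 141 ± 14.9 RPM in leaves and 1.06 ± 0.662 and 0.0765 ± 0.0924 RPM in roots. OsGLK1, an activator of chloroplast genes, was at 0.12, 0.101, 0.634 and 0.496 RPM in roots and 37.9, 23, 28.4 and 23.4 RPM in leaves, a difference of -4.44 ± 0.19 (adjusted p = 8.85e-07). The YABBY genes YAB6 and SH1 averaged 16.7 ± 2.78 and 22.6 ± 4.23 RPM in leaves and were listed at 0 in roots. All 12 tested root development genes were higher in roots, 7 by at least 4-fold, or 10 and 5 after TMM rescaling. SHR1, of the SHORT-ROOT type that patterns the endodermis, was at 20.4, 20.1, 22.3 and 20.1 RPM in roots and 0.301, 0.135, 0.13 and 0.0328 RPM in leaves, a difference of 4.24 ± 0.12 (adjusted p = 1.26e-07). The root meristem genes PLT1 and PLT2 and the root hair factors OsbHLH125 and OsbHLH126, named after their values were seen, averaged 3.70 to 6.73 RPM in roots and at most 0.0298 RPM in leaves.

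OsbZIP83 itself (BZIP83, Os12g0152900, chromosome 12) was at 32, 154, 186 and 188 RPM in roots and 1.62, 75.3, 100.5 and 95 RPM in leaves. In NT it was nearly a root gene, with a difference of 3.66, and in the 3 overexpression lines the tissues differed by 0.88 to 1.02. Over the 4 lines the difference was 1.63 ± 0.46 (adjusted p = 0.0124), which was not past the threshold without the line block (adjusted p = 0.211) or after TMM rescaling (adjusted p = 0.0614), and was 0.96 without NT. Reads of the transgene and of the gene's own copy were not told apart here.

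The tissue difference was also compared between lines. The mean root minus leaf difference of the 3 overexpression lines was set against that of NT with limma, without line as a block. NT gave 1 library per tissue, so its own spread is unknown and no count or p-value is given. The fit does not show how many genes depended on the line. Among the genes named here, NAS3, BZIP83, OsTPS3, POX5.1 and STV11 were chosen by that fit's own threshold of 0.05. That choice rests on a spread of NT that was not measured. STV11, a sulfotransferase gene, was named after its values were seen. STV11 was at 7.11, 19.96, 15.2 and 12.7 RPM in roots and 17.2, 1.74, 1.17 and 0.739 RPM in leaves. It was higher in leaves in NT and higher in roots in each of the 3 lines, and its difference over all 4 lines was 1.91 ± 0.69 (adjusted p = 0.0355) and 2.94 without NT, and it was not called without any one of the other 3 lines.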

How the data were processed

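Total RNA from roots and leaves was sequenced as Lasy-Seq v1.1 libraries, per the labels' protocols. The submitters' processing notes name Trimmomatic 0.39, Bowtie 1.2.3, RSEM 1.2.21 and the IRGSP-1.0 genome, with no settings. The deposited values are a normalized signal, reads per 1000000 (RPM) per gene computed by the authors, per the series' design text; gene, rRNA and ERCC rows each sum to 1000000, and 10 rRNA rows were used only for rRNA shares. The commonest nonzero value of each library was taken as 1 read, which gave the estimated gene reads. The values are not whole reads, so no count model was used.

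Genes averaging 1 RPM or more over 8 libraries (21991 of 46120) were tested on log2(RPM + 1) with limma 3.58.1 in R 4.3.3 (lmFit, eBayes with trend), with tissue and line as terms, 3 residual degrees of freedom, two-sided, Benjamini-Hochberg adjusted over all tested genes, at a threshold of 0.05. Fold ratios are of mean RPM. Other steps used Python 3.11.15 with numpy 2.4.6, pandas 2.3.3, scipy 1.17.1 and matplotlib 3.10.9. The level that a listed 0 allows is the estimated deduction. Lines pair the samples because root and leaf came from the same line. Deviations of same-line libraries from their tissue means correlated at 0.199 to 0.409 over 11324 genes. Libraries of different lines were not compared in this way, so the values do not show what pairing by line adds. In a simulation of 21991 genes, 67, 67 and 66 were changed by 2-, 4- and 8-fold. Of these 64.2%, 88.1% and 95.5% were recovered, and 4 unchanged genes were called. The changed genes were drawn from more abundant ones, and the noise held no line effects and no deducted reads. In the data 83.1% of genes differed, so these rates do not carry over. Alternatives were another pseudocount (0.1 or 5 RPM), no filter or one at 5 RPM, TMM (edges of 30% of ratios and 5% of levels trimmed) and quantile scaling, deducted reads added back, no line block and each line left out.

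Genes were chosen with earlier results of these data known, and so were the lists, whose search words were revised after matching descriptions. Values are given for the 10 most abundant genes past 4-fold in all 4 lines per tissue, for genes drawn from the 2 most abundant called members per direction of each list described, for isoform families and for OsbZIP83; others are said to be named after their values were seen. Of 235 listed symbols, 223 matched, 40 of them by hand. Identical values were found for 117 tested genes, which share reads. Places are chromosomes read from locus identifiers.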

Additional observations from a re-analysis of the deposited data

Results flagged for a closer look

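For some of the genes named, the gap between the root minus leaf difference of the 3 overexpression lines and that of NT is given. They were chosen by the limma fit's own threshold. Positive values mean that roots gained on leaves in the lines. The gap was 3.27 on the log2 scale for NAS3, -2.7 for BZIP83, 4.11 for STV11, -2.16 for OsTPS3 and -1.85 for POX5.1. NT is a single library per tissue in that fit, which assumes that it varies like the 3 lines and leaves out the pairing by line. There is no measure of the spread of NT itself, so no p-value is given.

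In 37 of 376 sets of 4 libraries of a tissue, over the genes named and leaving out sets listed at 0 throughout, 1 library stood apart from the other 3 by Dixon's test, and 19 of these libraries were from NT. In 10 of the 37, 2 of them from NT, the other 3 libraries are listed at 0, which fixes that outcome, so the rate of about 1 in 20 that chance gives holds only for sets without such values. In the NT root library CAB1R (190.2 RPM), NIN8 (329 RPM), SKOR (35 RPM), SWEET1B (0.0895 RPM), OsbHLH058 (474 RPM), FER2 (29.8 RPM), OsCPn60beta2 (40.8 RPM), RbcS1 (11.4 RPM), Os07g0647500 (888 RPM), EXPB2 (388 RPM), Os11g0649600 (442 RPM) and GI (486 RPM) stood apart. In the b83OX-13 root library Os04g0111200 (51.1 RPM) stood apart. In the b83OX-15 root library NRT2.3 (22.4 RPM), OsDjC13 (0.321 RPM), GLO5 (1.26 RPM) and SHR1 (22.3 RPM) stood apart. In the b83OX-19 root library OsMST3 (671 RPM) stood apart. In the NT leaf library NAS3 (21.8 RPM), AGPS2 (178 RPM), OsLFNR2 (1928 RPM), DIP3 (258 RPM), WRKY68 (77.1 RPM), OsbHLH126 (0.0217 RPM) and STV11 (17.2 RPM) stood apart. In the b83OX-13 leaf library PT2 (0.00582 RPM), NAAT1 (13.2 RPM), Os11g0649600 (0.246 RPM) and LAC3 (0.00554 RPM) stood apart. In the b83OX-15 leaf library YSL16 (75.2 RPM), ASN1 (0.121 RPM), Os07g0442900 (0.272 RPM) and MAS (1.84 RPM) stood apart. In the b83OX-19 leaf library RBCS (19682 RPM), PHO1;3 (3.58 RPM), COPT1 (7.73 RPM) and NRAMP5 (0.0118 RPM) stood apart.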

How the results depend on the processing

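Scaling and the pseudocount both moved the counts. As deposited the median difference of all tested genes was 0.59 on the log2 scale, against 0.0722 after TMM rescaling, 0.0972 after quantile scaling, 0.11 with no filter on low values, 0.67 with a pseudocount of 0.1 RPM and 0.39 with one of 5 RPM. The number of genes higher in leaves was 5386 as deposited, 8222 after TMM rescaling and 8191 after quantile scaling. With a pseudocount of 5 RPM, 1810 genes were at least 4-fold higher in roots and 1362 in leaves. The other counts, under these settings, a filter at 5 RPM and deducted reads added back, stayed within 1.5 times their values as reported. Leaving out each line in turn gave 12207 to 12632 genes higher in roots, 5030 to 5426 higher in leaves, 3669 to 3860 and 2155 to 2177 past 4-fold, and medians of 0.56 to 0.62. The fit with no replicate block called 12856 genes higher in roots and 5328 higher in leaves, and 3777 and 2157 past 4-fold. Of the genes named, OsVIT2, DSM2 and BZIP83 lost the call without the block and no other did. At 5 RPM or more, roots still held 1876 more genes than leaves.

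Of the 213 named genes tested, the direction turned for 4 after TMM rescaling, at -0.0694 for OsbHLH059, -0.23 for OsbHLH060, -0.21 for Os07g0147900 and -0.28 for WRKY53, and for 2 after quantile scaling, at -0.00320 for OsbHLH060 and -0.101 for Os07g0147900. After TMM rescaling 7 more lost the call, among them BZIP83, NAAT1 and DMAS1, and YSL16 and PEZ1 were called higher in leaves. NAAT1, STV11, WRKY53 and GI also lost the call with no filter on low values, and NAAT1 and STV11 with a pseudocount of 5 RPM. All 213 kept direction and call with deducted reads added back or a pseudocount of 0.1 RPM.

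Medians of some lists with members on both sides changed sign. After TMM rescaling they were -0.18 for seed storage proteins, -0.13 for nitrogen assimilation, -0.30 for sulfate genes, -0.20 for MATE transporters, -0.24 for cytosolic ribosomal proteins, -0.19 for UDP-glycosyltransferases, -0.0689 for homeobox and -0.44 for MADS-box genes. After quantile scaling they were -0.0925 for seed storage proteins, -0.0547 for sulfate genes, -0.11 for MATE transporters, -0.31 for UDP-glycosyltransferases, -0.0729 for homeobox and -0.36 for MADS-box genes. With no filter they were 0.0449 for internal iron genes, -0.0115 for carbonic anhydrase and PEP carboxylase genes, 0.15 for cutin and wax, -0.0120 for MADS-box and 0.0493 for Dof genes. With a filter at 5 RPM they were -0.00803 for sulfate genes and -1.44 for carbonic anhydrase and PEP carboxylase genes, and without b83OX-19 0.0860 for Dof genes. TMM rescaling by construction multiplies all genes of a library alike; for the other settings the cause was not tested.

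Each tissue and line gave 1 library, and 0.13, rounded, is the smallest p of an exact test over 4 pairs. Genes near 1 RPM rest on few reads, and a listed 0 holds an unknown number. Comparisons of promoters and of protein identity were not run.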

Other observations

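Homeobox, Dof and MADS-box genes held members at least 4-fold higher in each tissue. Of 47 homeobox genes, 9 were at least 4-fold higher in roots and 7 in leaves, shares of 19.1% and 14.9% beside 17.2% and 9.81% of all tested genes, and after TMM rescaling 7 and 9 were. HOS59, annotated as knotted-1-like, was at 123, 109, 118 and 125 RPM in roots and 631, 665, 730.2 and 653 RPM in leaves, a difference of -2.49 ± 0.09 (adjusted p = 3.61e-07), and HOX5, a homeodomain leucine zipper gene, averaged 210.0 ± 36.1 and 54.7 ± 3.19 RPM. Of 9 Dof genes, 1 was at least 4-fold higher in roots and 3 in leaves, with DOF27 at 29 ± 3.74 RPM in roots and 1.88 ± 0.36 RPM in leaves and RDD4 at 5.77 ± 1.65 and 118 ± 16.7 RPM. Among 18 MADS-box genes, 4 were at least 4-fold higher in roots and 3 in leaves (3 and 5 after TMM rescaling), and MADS22 averaged 16.3 ± 2.14 and 90.5 ± 7 RPM. Of 60 auxin genes, 19 were at least 4-fold higher in roots and 0 in leaves, and of 29 cytokinin genes 5 and 2, the former 17.2%, as of all tested genes (3 and 3 after TMM rescaling). SAUR10, an auxin-responsive gene, was at 485, 441, 539.8 and 603 RPM in roots and listed at 0 in leaves, whereas LOG1, which makes active cytokinins, was at 29.5, 29.9, 34.5 and 31.1 RPM in roots and 362, 299.8, 282 and 251 RPM in leaves, a difference of -3.21 ± 0.12 (adjusted p = 4.49e-07). The carbon enzymes osppdka and ALPHACA6, annotated as pyruvate phosphate dikinase and carbonic anhydrase genes, averaged 115 ± 73.2 and 130.1 ± 8.53 RPM in roots and 0.18 ± 0.236 and 3.3 ± 0.905 RPM in leaves. PEPC-2, a PEP carboxylase gene, was higher in leaves at 164 ± 5.43 against 45.2 ± 4.94 RPM.

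Some neighbouring genes were higher in the same tissue. Runs of at least 5 consecutive tested genes, each at least 4-fold higher in the same tissue, numbered 23 for roots and 1 for leaves. Of all tested genes 17.2% passed 4-fold toward roots and 9.81% toward leaves, which alone makes root runs likelier. An expected number of runs was not computed, and runs were not counted after TMM rescaling. The longest root run held 15 genes on chromosome 7, from Os07g0124900 to Os07g0129700, and 10 of them are annotated as allergen V5 (PR1-type) proteins. PR1-72, PR1b, PR1A and OsPR1, in the same run, are described as pathogenesis-related or PR1a proteins and are not in the sums below. Of the 10 allergen V5 genes, 9 have values identical to those of another gene, so they share reads and their separate levels are uncertain. The length of the run rests in part on them. The 10 summed to 4454 RPM in the NT root library and to 14152, 11673 and 11805 RPM in those of b83OX-13, b83OX-15 and b83OX-19. PR1-73, the member without identical values, went the other way, at 340, 120, 101 and 84.6 RPM in roots. The next run held 10 genes on chromosome 8, from Os08g0189100 to Os08g0190100, and includes GLP8-7 and GLP8-11. The leaf run held 6 genes on chromosome 12, from Os12g0115000 to Os12g0115600, and includes the lipid transfer protein gene OsLTP1.19, at 652 ± 49.3 RPM in leaves and listed at 0 in roots. The most abundant root lipid transfer gene was OsLTP2.4, on chromosome 5, at 953 ± 164 RPM in roots and 7.9 ± 1.39 RPM in leaves.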
